A study of Mus musculus with 8 samples.

Results

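The genes described here make cholesterol and fatty acids or control that supply. They were chosen by symbol, 37 genes that each had a row among the 31815 gene rows of the counts table, and 36 of them passed the filter on low counts with 13329 genes in all. By role they were 7 genes of the mevalonate steps, 11 genes of the steps that turn farnesyl diphosphate into cholesterol, 6 regulators and sterol carriers, 3 genes of fatty acid synthesis, 7 of fatty acid elongation and desaturation, and 3 of the liver X receptor (LXR) and cholesterol efflux group. The single member that did not pass was Scd1, a stearoyl-CoA desaturase, with 0 to 24 counts per library and 24 of them in TOXFL-positive replicate 1. The libraries were made from CD8 T cells of OT-I mice, C57BL/6 animals with a T cell receptor transgene specific for ovalbumin.

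Naive CD8 T cells from the spleen were cultured with ovalbumin peptide for 3 days, transduced 24 h into the culture and sorted on day 5. The vector carried TOXFL, full-length TOX, or TOXdeltaN, a second form of this nuclear HMG-box protein, each with GFP behind an internal ribosome entry site. TOXFL-positive and TOXdeltaN-positive cells came from the brightest 20% by GFP of the cultures given that construct, and TOXFL-negative and TOXdeltaN-negative cells were those without GFP. All 4 groups therefore share the OT-I receptor, the peptide and exposure to virus, and each had 2 libraries. Cells carrying GFP alone were not analysed here, so the TOX protein, the vector and the sort for bright GFP cannot be told apart. Nothing in the labels ties the 2 libraries of a group to separate mice or cultures, so p-values measure only how these libraries vary, possibly for technical reasons.

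Cholesterol is built from acetyl-CoA through mevalonate and the isoprenoid farnesyl diphosphate, then through squalene and lanosterol. When membrane sterol is low, SCAP escorts the SREBP transcription factors out of the endoplasmic reticulum and the released SREBPs switch on the genes of this route and those of fatty acid synthesis, while INSIG proteins hold the complex back when sterol is ample. Oxysterols activate the LXRs, which raise the exporters ABCA1 and ABCG1, and dividing T cells draw on both supplies for new membrane.

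Promoter sequences are shown for 3 enzymes because they hold, in different number, the motifs that sterol-regulated promoters are known for. RefSeq windows on GRCm38.p6, the 250 bases before each gene's start, were found for 29 of the 37 members and for 27025 genes in all. The 8 members without a window, Abcg1, Fads1, Stard4, Fdps, Fdft1, Scd2, Sqle and Scd1, were not searched. Both strands were searched for the sterol regulatory element core TCACNCCAC, the CCAAT box CCAAT, the GC box GGGCGG and the LXR repeat, GGTCA given again after 5 bases. Sequences run 5′ to 3′ with matches in capitals, and bases that GENCODE places inside the gene were left out. Hmgcs1, the synthase that makes the precursor of mevalonate, is shown over chr13:119690101-119690350 on the plus strand. Mvk, mevalonate kinase, is shown over chr5:114444019-114444268 on the plus strand, and Cyp51, the lanosterol demethylase, over chr5:4104747-4104947 on the minus strand.
Hmgcs1: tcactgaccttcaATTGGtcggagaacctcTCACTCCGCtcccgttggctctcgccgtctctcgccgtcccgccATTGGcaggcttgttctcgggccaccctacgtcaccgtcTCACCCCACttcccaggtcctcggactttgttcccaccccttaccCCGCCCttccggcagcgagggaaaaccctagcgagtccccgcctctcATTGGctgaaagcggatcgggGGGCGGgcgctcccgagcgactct
Mvk: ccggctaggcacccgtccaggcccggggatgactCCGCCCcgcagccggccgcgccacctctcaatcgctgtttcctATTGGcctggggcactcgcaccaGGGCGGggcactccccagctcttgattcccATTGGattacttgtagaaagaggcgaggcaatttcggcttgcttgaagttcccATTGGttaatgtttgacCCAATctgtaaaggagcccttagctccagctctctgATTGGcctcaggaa
Cyp51: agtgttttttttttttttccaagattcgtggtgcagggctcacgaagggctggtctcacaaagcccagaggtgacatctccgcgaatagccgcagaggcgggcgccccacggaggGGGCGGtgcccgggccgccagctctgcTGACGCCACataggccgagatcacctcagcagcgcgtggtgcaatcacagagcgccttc

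Of the members searched, Hmgcs1 alone had an exact sterol regulatory element core (1 of 29, or 3.45%, against 1.22% of all genes). It lay 137 bases before the RefSeq start, and a second match with 1 mismatch lay 220 bases before that start. Among the sequences shown, Cyp51 had 1 match with 1 mismatch, 108 bases before the RefSeq start, and the Mvk window had none. For Cyp51 that start lies beyond the end of the 201 bases printed, which stop at the GENCODE start. With 1 mismatch allowed, 11 of 29 members (37.9%) held the core, against 23.0% of all genes, among them Insig1, Srebf2, Msmo1 and Acly. A CCAAT box stood in 21 of 29 members (72.4%, against 37.5% of all genes) and in Mvk 5 times, and a GC box in 23 of 29 (79.3%, against 35.4%). The LXR repeat stood in 0 of 29 members, Abcg1 not being among those searched, and in 0.0703% of all genes. The 27025 genes were not limited to the 13329 tested here. A gene was counted if any of its windows held the motif, and the 29 members had 38 windows. A match is a run of letters and not a measured binding site.

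Total counts per library lay between 25059112 and 31240067. Tox itself, which checks the labels of GFP status, stood at 82.9 to 126 CPM (counts scaled to 1e6 per library) in GFP-positive libraries against 21.8 to 34.4 CPM in GFP-negative libraries. It does not check the construct, as TOXFL-positive (104.8 and 126.3 CPM) and TOXdeltaN-positive libraries (107.2 and 82.9 CPM) overlapped. The 8 CD8 T cell markers summed to 4622 to 5138 CPM in GFP-positive and 4837 to 5087 CPM in GFP-negative libraries, and Cd4 stayed at or under 1.23 CPM. Of 6 B cell markers, Pax5 was at 0 and the sum was 13.99 to 16.4 CPM in GFP-positive against 16.4 to 17.5 CPM in GFP-negative libraries. The 8 myeloid markers, with Adgre1 at 0, summed to 98.2 to 129 CPM in GFP-positive against 89.0 to 99.1 CPM in GFP-negative libraries. NK markers (3 genes) summed to 3.40 to 7.11 CPM in GFP-positive against 4.72 to 8.50 CPM in GFP-negative libraries. The 8 proliferation genes moved with GFP status. Their sum was 2821 to 3179 CPM in GFP-positive and 2266 to 2546 CPM in GFP-negative libraries, and 6 of the 8 were called higher with the replicate term. The share of counts from mitochondrial genes was 0.450% to 0.798% in GFP-positive and 0.832% to 0.909% in GFP-negative libraries. The part of cell division and RNA quality in the results below was not tested.

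Across the GFP comparison most sterol enzymes had small positive values. All 18 enzymes from Acat2 to Dhcr7 had a positive log2 fold change, GFP-positive over GFP-negative, when the effects of both constructs were averaged, with a median of 0.21, against 49.9% of the 13329 tested genes and a median of -0.001 over them. With TOXFL 17 of the 18 were positive (49.4% of all tested genes), and with TOXdeltaN 15 of 18 were, Lss, Dhcr7 and Hsd17b7 being negative (50.8% of all tested genes). The 3 genes of fatty acid synthesis had negative values (median -0.15; 2 of 3 with gene length and GC content corrected beside a replicate term), as did the 3 genes of the LXR and efflux group (median -0.48). Across all 36 members the median was 0.09, with 23 positive and 13 negative. The libraries separated for a minority of members: 6 of 36 had all 4 GFP-positive libraries above all 4 GFP-negative ones (8.22% of all tested genes), and 2 had all 4 below (8.08% of all tested genes).

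**Figure D1:**
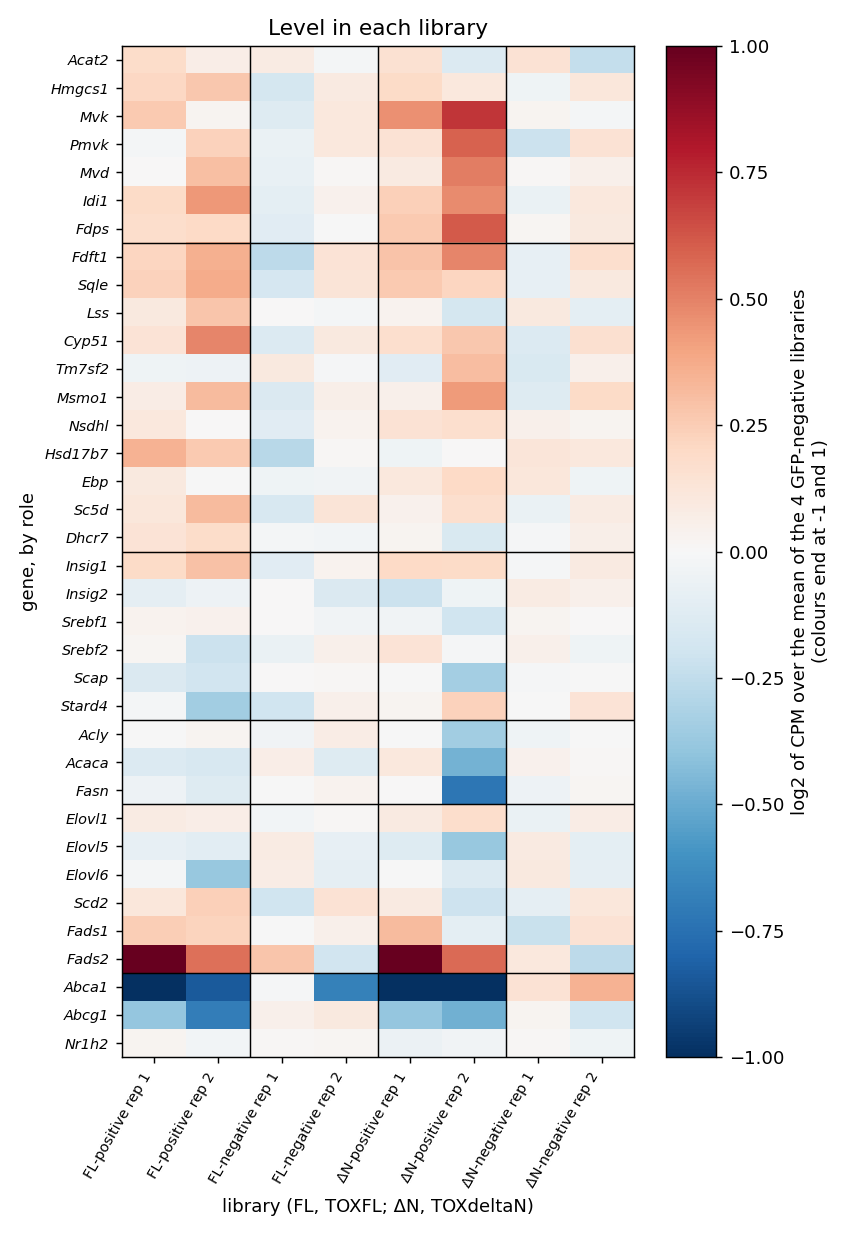
Each cell is the log2 of a gene's CPM in 1 library over its mean in the 4 GFP-negative libraries, for the 36 tested members in order of role (rows) and the 8 libraries (columns); horizontal lines part the roles and vertical lines the groups. The mevalonate rows are mostly red in the GFP-positive columns, Abca1 and Abcg1 are blue there, and TOXdeltaN-positive replicate 2 stands out as blue for Acly, Acaca and Fasn.

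Calls were few in the fit without a replicate term (edgeR, Benjamini-Hochberg adjustment over all tested genes, threshold 0.05). It called 0 of 36 members for TOXFL (0.045% of all tested genes) and 0 of 36 for TOXdeltaN (0.03%). At an unadjusted p under 0.05 there were 8 members with each construct (22.2%), against 13.4% and 12.2% of all tested genes. DESeq2 called 1 member for TOXFL, Abcg1 (adjusted p = 0.0122), among 311 genes, and 0 for TOXdeltaN, where it called 113 genes. For the average of both constructs edgeR called 1 member, Abcg1, as lower (2.42% of all tested genes were called, and 1.08% as lower). DESeq2 called more genes in that comparison, 1045, and 6 of them were members. These were Abcg1 and, as higher, Idi1, Fdps, Fdft1, Sqle and Fads2. Libraries with the same replicate number deviated together, and with that number as a term 9 of 36 members were called for the average (12.7% of all tested genes). These were 8 called higher (6.04% of all tested genes), Mvk, Idi1, Fdps, Fdft1, Sqle, Cyp51, Msmo1 and Fads2, and Abcg1 called lower (6.69%). The same term gave 2 members for TOXFL, Fads2 and Abcg1 (3.48% of all tested genes), and 1 for TOXdeltaN, Fads2 (1.65%). Both of these counts changed widely when 1 library at a time was omitted, and both were highest without TOXdeltaN-positive replicate 1. The share of all tested genes called in those fits is not given here, so members cannot be set apart from other genes there. With gene length and GC content corrected as well, 5 members were called for TOXFL (4.81% of all tested genes), 1 for TOXdeltaN (2.57%) and 9 for the average (12.7%). With the replicate term alone, 7 of the 18 sterol enzymes were called higher (6.04% of all tested genes) and 0 lower (6.69%) in the average.

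**Figure D2:**
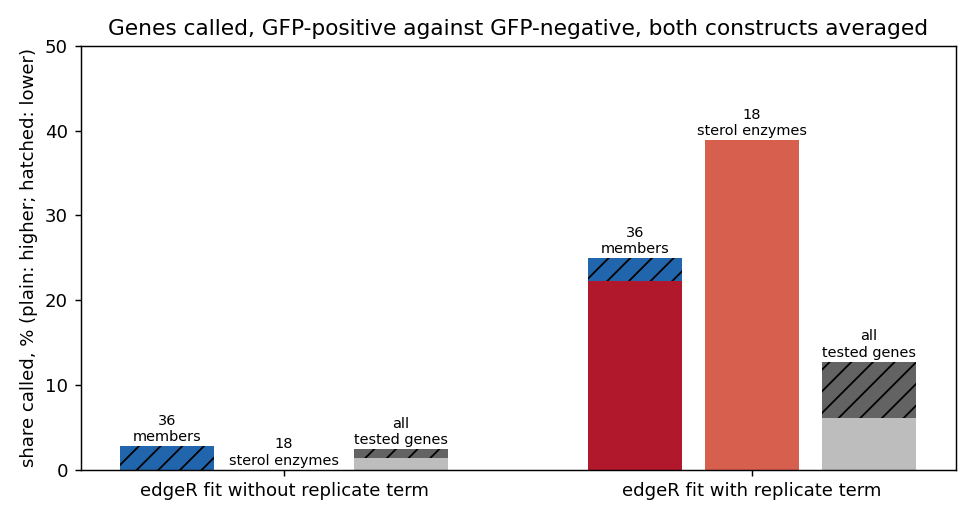
Bars give the share of genes called higher (plain) and lower (hatched) at an adjusted p under 0.05 for the average of both constructs, GFP-positive against GFP-negative, among the 36 members, the 18 sterol enzymes and all tested genes, in the edgeR fits without and with the replicate number as a term. Without it the sterol enzymes had 0 calls. With it 7 of the 18 were called higher, against 6.04% of all tested genes called higher and 12.7% called in either direction.

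All 7 genes of the mevalonate steps had a positive value with each construct, and 3 of them were called higher with the replicate term (6.04% of all tested genes). With gene length and GC content corrected as well, 6 of the 7 were positive with TOXdeltaN, Acat2 being at -0.03. Idi1, the isomerase that activates isopentenyl diphosphate (chr13:8885501-8892451, GRCm38, plus strand), had 111 and 131 CPM in TOXFL-positive cells and 114 and 134 CPM in TOXdeltaN-positive cells, against 90.6 and 100.01 CPM in TOXFL-negative cells and 92.5 and 104 CPM in TOXdeltaN-negative cells. Every GFP-positive library lay above every GFP-negative one. Its average log2 fold change was 0.34 (SE 0.0879; adjusted p = 0.0765 without and 0.00564 with the replicate term), and it was 0.34 with TOXFL and 0.34 with TOXdeltaN. Fdps, which makes farnesyl diphosphate (chr3:89093588-89101959), had 125 and 127 CPM in the TOXFL-positive and 133 and 169 CPM in the TOXdeltaN-positive libraries, against 102 and 110.3 CPM in the TOXFL-negative and 112 and 118 CPM in the TOXdeltaN-negative libraries. The groups again did not overlap, and TOXdeltaN-positive replicate 2 was the highest library. The average was 0.32 (SE 0.0848; adjusted p = 0.081 without and 0.0165 with the replicate term). For Mvk (chr5:114444269-114460591) the libraries read 17.2 and 14.7 CPM in TOXFL-positive cells and 19.7 and 23.6 CPM in TOXdeltaN-positive cells, against 13.2 and 15.4 CPM in TOXFL-negative cells and 14.6 and 14.2 CPM in TOXdeltaN-negative cells. Here the TOXdeltaN groups stood apart while those of TOXFL overlapped, the log2 fold change being 0.16 (SE 0.149) with TOXFL and 0.58 (SE 0.149) with TOXdeltaN. The average for Mvk was 0.37 (SE 0.105; adjusted p = 0.0922 without and 0.0423 with the replicate term), and the difference between constructs was -0.43 (SE 0.211; edgeR adjusted p = 1.0).

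The other 4 mevalonate genes passed in neither fit. Hmgcs1 (chr13:119690379-119708260) had 181 and 189 CPM in the TOXFL-positive and 179 and 169 CPM in the TOXdeltaN-positive libraries, against 139 and 166 CPM in the TOXFL-negative and 153 and 169 CPM in the TOXdeltaN-negative libraries. TOXdeltaN-positive replicate 2 (168.8 CPM) lay just under TOXdeltaN-negative replicate 2 (169.2 CPM), the sole overlap, and the average was 0.19 (SE 0.0769; adjusted p = 0.185 without and 0.0806 with the replicate term). Pmvk, phosphomevalonate kinase, averaged 0.25 on the log2 scale (SE 0.127) and Mvd, the decarboxylase that follows it, 0.24 (SE 0.11), and both were higher in 4 of 4 same-numbered pairs of GFP-positive and GFP-negative libraries. Acat2, the thiolase at the head of the route, gave 0.07 (SE 0.0994). Summed over the 7 genes, the mevalonate steps came to 639 and 664 CPM in TOXFL-positive and 652 and 694 CPM in TOXdeltaN-positive libraries, against 538 and 579 CPM in TOXFL-negative and 570 and 576 CPM in TOXdeltaN-negative libraries.

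**Figure D3:**
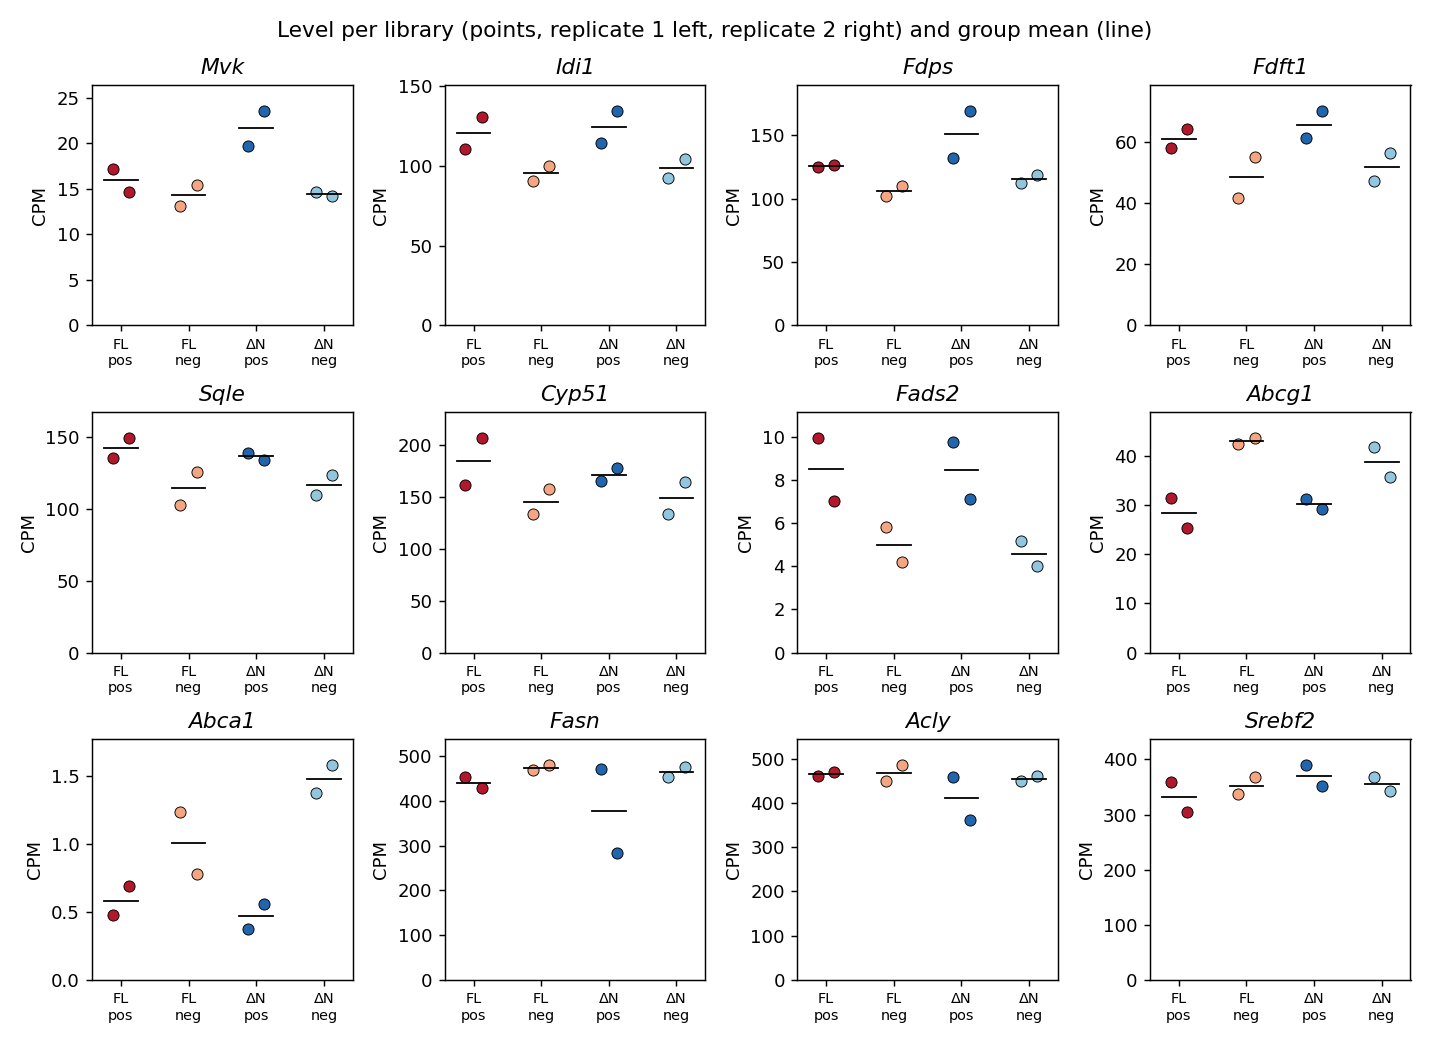
Points are CPM in single libraries of 12 members (y axes start at 0), replicate 1 left and replicate 2 right in each group, and lines are group means (n = 2). Idi1, Fdps, Fdft1, Sqle and Fads2 have all GFP-positive points above all GFP-negative points, Abcg1 and Abca1 have them below, and Fasn and Acly have 1 low point in TOXdeltaN-positive cells.

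Between farnesyl diphosphate and cholesterol, 4 of 11 genes were called higher with the replicate term (6.04% of all tested genes) and 0 of 11 without it. Fdft1, squalene synthase on chromosome 14, had 58.1 and 64.2 CPM in TOXFL-positive cells and 61.2 and 70.3 CPM in TOXdeltaN-positive cells, against 41.8 and 55.1 CPM in TOXFL-negative cells and 47.4 and 56.3 CPM in TOXdeltaN-negative cells. The lowest GFP-positive library was above the highest GFP-negative one, and the average was 0.34 (SE 0.106; adjusted p = 0.113 without and 0.0102 with the replicate term). Sqle, squalene epoxidase (chr15:59315077-59331192), had 136 and 149.6 CPM in the TOXFL-positive and 139 and 135 CPM in the TOXdeltaN-positive libraries, against 103 and 126 CPM in the TOXFL-negative and 109.5 and 124 CPM in the TOXdeltaN-negative libraries. These groups did not overlap either, with an average of 0.27 (SE 0.0838; adjusted p = 0.11 without and 0.026 with the replicate term). Cyp51 (chr5:4081145-4104746) had 161 and 207 CPM in TOXFL-positive cells and 165 and 178 CPM in TOXdeltaN-positive cells, against 133 and 157 CPM in TOXFL-negative cells and 134 and 164 CPM in TOXdeltaN-negative cells. Each GFP-positive library exceeded the GFP-negative library of its own number and construct, but TOXFL-positive replicate 1 lay under TOXdeltaN-negative replicate 2. The average for Cyp51 was 0.27 (SE 0.103; adjusted p = 0.172 without and 0.0189 with the replicate term). Msmo1, the methylsterol oxidase (chr8:64718139-64733792), had 61.4 and 72.6 CPM in the TOXFL-positive and 60.4 and 78.2 CPM in the TOXdeltaN-positive libraries, against 52.7 and 60.6 CPM in the TOXFL-negative and 53.3 and 66.5 CPM in the TOXdeltaN-negative libraries. It showed the same order within each pair with wider overlap, and averaged 0.23 (SE 0.113; adjusted p = 0.279 without and 0.0428 with the replicate term).

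The remaining 7 genes of these steps, Lss, Tm7sf2, Nsdhl, Hsd17b7, Ebp, Sc5d and Dhcr7, had averages between 0.03 (Tm7sf2) and 0.16 (Sc5d, SE 0.0899), and none passed in either edgeR fit. Hsd17b7, a sterol ketoreductase, had 18.8 and 17.7 CPM in TOXFL-positive cells and 14.3 and 14.8 CPM in TOXdeltaN-positive cells, against 12.2 and 14.9 CPM in TOXFL-negative cells and 16.1 and 15.9 CPM in TOXdeltaN-negative cells. The TOXFL-positive libraries lay above, and the TOXdeltaN-positive libraries below, their GFP-negative libraries. Srebf1 was the only other member of the 36 whose groups parted in opposite directions (2.48% of all tested genes did so). The difference of the effects for Hsd17b7 was 0.56 (SE 0.191) and did not pass (edgeR adjusted p = 1.0). It was the single member of 36 with an unadjusted p under 0.05 in that comparison, in which edgeR called 0 of the 13329 tested genes (0.0%; 318 at an unadjusted p under 0.05) and DESeq2 called 5.

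**Figure D4:**
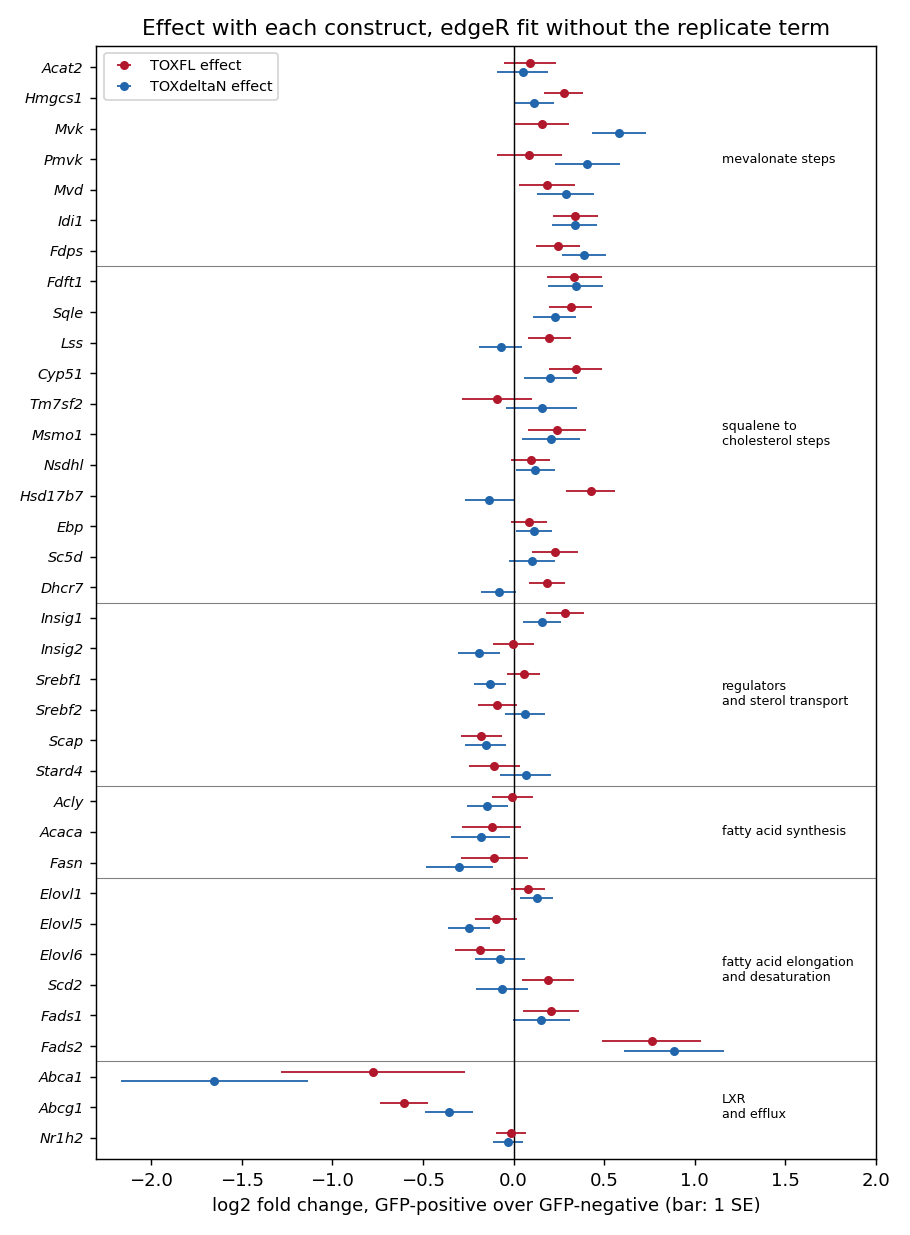
Points are log2 fold changes, GFP-positive over GFP-negative, with TOXFL (red) and TOXdeltaN (blue), and bars are 1 SE, from the edgeR fit without the replicate term; members run down the page in order of role. All 7 mevalonate genes lie right of 0 with both constructs, Fads2 lies farthest right and Abca1 farthest left, and Hsd17b7 has the widest gap between constructs relative to its SE.

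Of the regulators, 0 of 6 were called in the edgeR fits with or without the replicate term, and in the average 1 of 6, Insig1, had an unadjusted p under 0.05 without the term (21.9% of all tested genes) and 2 of 6, Insig1 and Scap, with it (29.0%). Insig1, which holds SREBPs back and is itself an SREBP target, had 38.3 and 41 CPM in TOXFL-positive cells and 38.4 and 38.3 CPM in TOXdeltaN-positive cells, against 30.9 and 34.3 CPM in TOXFL-negative cells and 33.2 and 35.6 CPM in TOXdeltaN-negative cells. All GFP-positive libraries lay above all GFP-negative ones, with an average of 0.22 (SE 0.0735; adjusted p = 0.13 without and 0.0552 with the replicate term). Its relative Insig2 ranged from 21.8 to 24.6 CPM in the GFP-positive libraries against 23 to 26.8 CPM in the GFP-negative libraries, with overlap, and averaged -0.10 (SE 0.0802; adjusted p = 0.51). Srebf2, the SREBP that mainly drives the sterol route, covered 304 to 389.9 CPM in the GFP-positive libraries against 338 to 367 CPM in the GFP-negative libraries. The GFP-negative range lay inside the GFP-positive one, and the average was -0.01 (SE 0.076; adjusted p = 0.945). Srebf1, the SREBP tied more to fatty acid synthesis, had 153 and 154 CPM in the TOXFL-positive and 145 and 129.9 CPM in the TOXdeltaN-positive libraries, against 149 and 145 CPM in the TOXFL-negative and 152 and 149 CPM in the TOXdeltaN-negative libraries. It leaned up with TOXFL (0.06) and down with TOXdeltaN (-0.13), and the average was -0.04 (SE 0.0636; adjusted p = 0.776). Scap, the escort, had 172 and 167 CPM in TOXFL-positive cells and 190.4 and 150.2 CPM in TOXdeltaN-positive cells, against 191 and 192 CPM in TOXFL-negative cells and 189 and 190.0 CPM in TOXdeltaN-negative cells. Among GFP-positive libraries only TOXdeltaN-positive replicate 1 reached the GFP-negative level, and the average was -0.17 (SE 0.0798; adjusted p = 0.261). Omitting 1 library at a time gave -0.26 without that library, where Scap was called lower (edgeR adjusted p = 0.0118), to -0.09, and with the replicate term, gene length and GC content it was -0.07. Stard4, a cytosolic sterol carrier, averaged -0.02 (SE 0.0996).

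The 3 genes of fatty acid synthesis had negative averages, none of them called in the edgeR fits with or without the replicate term. Fasn, fatty acid synthase, had 453 and 429 CPM in TOXFL-positive cells and 471 and 284 CPM in TOXdeltaN-positive cells, against 469 and 480.3 CPM in TOXFL-negative cells and 453 and 476 CPM in TOXdeltaN-negative cells. Acaca, acetyl-CoA carboxylase, had 50.2 and 49.3 CPM in the TOXFL-positive and 59.3 and 39.9 CPM in the TOXdeltaN-positive libraries, against 57.7 and 50.5 CPM in the TOXFL-negative and 56.9 and 55.6 CPM in the TOXdeltaN-negative libraries. TOXdeltaN-positive replicate 2 was the lowest of the 8 libraries for both. Both TOXFL-positive libraries also lay under every GFP-negative library for each gene. For Fasn they had 452.89 and 429.1 CPM against a lowest GFP-negative value of 452.99 CPM. For Acaca they had 50.216 and 49.272 CPM against 50.5 CPM. TOXdeltaN-positive replicate 1 lay within the GFP-negative range for Fasn and above it for Acaca. Acly, which frees acetyl-CoA from citrate, showed the same low library at 362 CPM, with the other 7 at 449 to 486 CPM. The averages were -0.20 for Fasn (SE 0.132; adjusted p = 0.395), -0.15 for Acaca (SE 0.116; adjusted p = 0.475) and -0.08 for Acly (SE 0.0807; adjusted p = 0.616), all by edgeR. Leaving out TOXdeltaN-positive replicate 2 brought Fasn to -0.04 and Acaca to -0.02. Leaving out TOXdeltaN-positive replicate 1 instead gave -0.41 for Fasn (edgeR adjusted p = 0.00437) and -0.31 for Acaca (0.0214). With gene length and GC content corrected beside the replicate term, Acaca turned to 0.05 and Fasn stood at -0.06.

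Among the genes that lengthen and desaturate fatty acids, Fads2, the desaturase that opens the route to polyunsaturated fatty acids (chr19:10062765-10101746, minus strand), had the largest positive value of all 36 members. It had 9.95 and 7.03 CPM in TOXFL-positive cells and 9.77 and 7.12 CPM in TOXdeltaN-positive cells, against 5.82 and 4.19 CPM in TOXFL-negative cells and 5.17 and 4 CPM in TOXdeltaN-negative cells, from 119 to 294 counts. Every GFP-positive library lay above every GFP-negative one, and within each group replicate 1 was the higher. The log2 fold change was 0.76 with TOXFL (SE 0.274; adjusted p = 0.282 without and 0.0436 with the replicate term) and 0.88 with TOXdeltaN (SE 0.275; 0.332 without and 0.0437 with it). The average was 0.82 (SE 0.194; adjusted p = 0.061 without and 0.00351 with the replicate term). Fads1, which lies on the same chromosome and takes a later desaturation step, had 52.9 and 52.1 CPM in the TOXFL-positive and 55.6 and 41.7 CPM in the TOXdeltaN-positive libraries, against 44.6 and 46.3 CPM in the TOXFL-negative and 38.2 and 49.4 CPM in the TOXdeltaN-negative libraries. Its TOXdeltaN groups overlapped, and the average was 0.18 (SE 0.11; adjusted p = 0.366). Elovl5, an elongase of polyunsaturated chains, leaned the other way, with 233 and 231 CPM in the TOXFL-positive and 227 and 190.0 CPM in the TOXdeltaN-positive libraries, against 263 and 234 CPM in the TOXFL-negative and 263 and 231 CPM in the TOXdeltaN-negative libraries. It was lower in 4 of 4 same-numbered pairs, although TOXFL-positive replicate 1 exceeded TOXdeltaN-negative replicate 2, and averaged -0.17 (SE 0.0811; adjusted p = 0.252 without and 0.0889 with the replicate term; 0.0292 with length and GC corrected as well). Scd2, a second stearoyl-CoA desaturase, averaged 0.06 (SE 0.101), Elovl1 0.10 (SE 0.0651) and Elovl6 -0.13 (SE 0.0979), and none of these passed.

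The exporters were the members that were lowest in GFP-positive cells relative to GFP-negative cells. Abcg1 (chr17:31057675-31117988, plus strand), a transporter that passes cholesterol to lipoprotein particles, had 31.4 and 25.3 CPM in TOXFL-positive cells and 31.2 and 29.3 CPM in TOXdeltaN-positive cells, against 42.5 and 43.7 CPM in TOXFL-negative cells and 41.8 and 35.7 CPM in TOXdeltaN-negative cells. All 4 GFP-positive libraries lay below all 4 GFP-negative ones. It fell by 0.48 on the log2 scale in the average (SE 0.0923; adjusted p = 0.0342 without and 0.00454 with the replicate term), the single member called in both fits. With TOXFL the value was -0.60 (SE 0.131; adjusted p = 0.125 without and 0.0163 with the replicate term) and with TOXdeltaN -0.36 (SE 0.131; 0.364 and 0.127). Without the replicate term the call held in 2 of 8 omissions of a single library, where adjusted p reached 0.18, and with it in 8 of 8, where it reached 0.0457 at most.

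Abca1 (chr4:53030787-53159895, minus strand), the exporter that loads cholesterol onto apolipoproteins, was near the floor with 11 to 47 counts. It had 0.474 and 0.69 CPM in TOXFL-positive cells and 0.376 and 0.56 CPM in TOXdeltaN-positive cells, against 1.23 and 0.775 CPM in TOXFL-negative cells and 1.37 and 1.58 CPM in TOXdeltaN-negative cells. The groups did not overlap, but the average of -1.21 (SE 0.361) was not called (adjusted p = 0.101 without and 0.0588 with the replicate term). Nr1h2, the LXR of most cell types, lay level at 122 to 129 CPM in the GFP-positive libraries against 123 to 128 CPM in the GFP-negative libraries, with an average of -0.02 (SE 0.0595). The part of the myeloid markers given above in these values was not tested. In bulk samples, fewer cells of a type and less RNA per cell cannot be told apart.

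The constructs were also compared directly. In the difference of their effects the member median was 0.04, with SEs of 0.119 to 0.720 on the log2 scale and a median SE of 0.182, against the median of 0.21 of the sterol enzymes in the average. TOXFL-positive against TOXdeltaN-positive cells had a member median of 0.03 and TOXFL-negative against TOXdeltaN-negative cells one of -0.03, and edgeR called 0 of 36 members in either, with 0 of 13329 genes (0.0%) called without the replicate term. At an unadjusted p under 0.05 these comparisons had 3 and 0 members, against 5.76% and 2.46% of all tested genes, and DESeq2 called 12 and 5 genes. With the replicate term the GFP-positive groups had 7 members under that p (19.4%), against 9.54% of all tested genes. Separation by construct was common at 2 libraries against 2. With TOXFL 16 of 36 members had both GFP-positive libraries above both GFP-negative ones (24.9% of all tested genes) and 7 below (25.5%), and with TOXdeltaN 12 were above (21.1%) and 6 below (20.8%).

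Members also differed by replicate number. In 13 of 36 (36.1%, against 26.9% of all tested genes) replicate 2 stood on the same side of replicate 1 in all 4 groups. Replicate 2 was the higher for 8 of these, Mvd, Pmvk, Idi1, Fdps, Fdft1, Cyp51, Msmo1 and Sc5d, all sterol enzymes (1732 of all 13329 tested genes). It was the lower for 5, Acat2, Acaca, Fads2, Elovl5 and Elovl6 (1860 of all 13329 tested genes). What the number marks is not given in the labels.

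Per kilobase of exon, mean levels over all libraries ran from 0.0285 CPM for Scd1 and 0.0851 CPM for Abca1 to 85.2 CPM for Acly. Elovl5 (66.4), Acat2 (54.8), Srebf2 (49.1) and Fasn (40.1 CPM per kb) followed, and Cyp51 (36.8) and Hmgcs1 (36.6) led the remaining sterol enzymes. Fads2, at 2.01 CPM per kb, was among the lower members. The chemistry does not mark strand, and reads of overlapping genes cannot be told apart: Fdft1 shares 774 exon bases with Ctsb, Cyp51 166 with Akap9, Srebf1 109 with Rai1 and Elovl1 53 with Cdc20, all on opposite strands, and Tm7sf2 shares 532 with Vps51. Mean counts of the overlapping gene exceeded those of the member for Ctsb (6970 against 1630), Vps51 (2240 against 224) and Cdc20 (8900 against 2940). They were lower for Akap9 (2540 against 4680) and Rai1 (1610 against 4240). The part of such reads in the values of these members, Fdft1 among them, was not tested. Near copies held few reads, with at most 31 counts for Acat3, 16 for Scd4 and 1 for Idi2.

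Of 51 other genes of sterol and fatty acid supply, 43 were tested, and the average of both constructs gave 1 called higher and 0 lower without the replicate term, and 1 higher and 7 lower with it (6.04% and 6.69% of all tested genes). With gene length and GC content corrected as well there were 1 higher and 5 lower, Npc1 and Acsl1 being lost. The higher gene was Tmem97, a sterol-regulated membrane protein that binds NPC1, with 65.1 and 76.8 CPM in TOXFL-positive cells and 68.6 and 78.3 CPM in TOXdeltaN-positive cells, against 44.2 and 54.1 CPM in TOXFL-negative cells and 55.9 and 60.6 CPM in TOXdeltaN-negative cells. Its groups did not overlap, and the average was 0.43 (SE 0.0937; adjusted p = 0.0482 without and 0.00296 with the replicate term). Npc1, which exports cholesterol from lysosomes, ranged over 30.5 to 34.7 CPM in the GFP-positive libraries against 38 to 40.5 CPM in the GFP-negative libraries, with no overlap (average -0.27, SE 0.0753; adjusted p = 0.089 without and 0.0383 with the replicate term). Nceh1, a cholesteryl ester hydrolase, covered 23.8 to 25.2 CPM in the GFP-positive libraries against 28.4 to 30.8 CPM in the GFP-negative libraries, and its average was -0.27 (adjusted p = 0.0874 without and 0.0393 with the replicate term). Mylip, an LXR-induced ubiquitin ligase, averaged -0.53 (adjusted p = 0.102 without and 0.0191 with the replicate term). Its TOXFL groups overlapped, with 10.3 and 7.69 CPM in GFP-positive against 10.7 and 9.58 CPM in GFP-negative libraries. Its TOXdeltaN groups did not, with 8.58 and 5.64 CPM against 13.2 and 12.9 CPM. The remaining calls with the replicate term were Elovl7, an elongase, at -0.53 (adjusted p = 0.0104), Acss2, which makes acetyl-CoA from acetate, at -0.39 (0.0105), Acsl1, a fatty acyl-CoA synthetase, at -0.41 (0.0364) and Rnf139, a ubiquitin ligase of the endoplasmic reticulum, at -0.22 (0.0425), all by edgeR. Nr1h3, the second LXR, was low at 0.513 to 0.91 CPM in the GFP-positive libraries against 1.06 to 1.21 CPM in the GFP-negative libraries and did not pass (-0.80; adjusted p = 0.196 without and 0.146 with the replicate term).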

How the data were processed

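RNA was measured in 8 libraries, 4 groups of 2, each made from 8 ng of total RNA with SMART-Seq and Nextera kits, per the labels' protocols. The deposited values are the authors' RSEM estimated counts per gene, in whole numbers and not normalised. Per the submitters' processing notes, bcl2fastq 2.20, cutadapt, STAR 2.6.1 and RSEM 1.2.28 were used with the GRCm38 genome. The annotation release is not given in the sources used here. Coordinates come from GENCODE M21 where the gene version matched, which Fdft1 did not.

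Tests were run with edgeR 4.0.16 in R 4.3.3: filterByExpr by group, TMM scaling and the quasi-likelihood F-test on group means over all 13329 genes kept, with Benjamini-Hochberg adjustment and a threshold of 0.05. Standard errors are the log2 fold change divided by the square root of F. CPM uses the TMM factors. In the second fit the replicate number was a block. The pairing is inferred from the data, since same-numbered libraries deviated together, with correlations of 0.244 to 0.312 over tested genes in all 6 pairs of groups. DESeq2 1.42.0, limma 3.58.1, other scalings and filters, and omission of each library were alternatives. The fit was tested on simulated data with larger shifts than those of the sterol enzymes and less spread between libraries than here. That run does not measure how often shifts as small as theirs are found or falsely called. Plots used matplotlib 3.10.9.

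Members and lists were chosen with earlier results of these data known. Values in every library were given for members called in either fit, the 2 of each role with the smallest p in the average comparison, and the SREBP regulators, and others were added where a sentence turned on them. The 92 spike-in rows held 0 counts. The erythroid marker list is not reported here.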

Additional observations from a re-analysis of the deposited data

How the results depend on the processing

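With the replicate block, the genes called were 464 for TOXFL, 220 for TOXdeltaN and 1697 for the average, against 6, 4 and 323 without it, and the members called were 2, 1 and 9, against 0, 0 and 1. It gave 1 gene for TOXFL-positive against TOXdeltaN-positive, and with length and GC corrected as well 641, 342, 1687 and 2 genes and 5, 1 and 9 members. The added calls were Idi1, Cyp51 and Sqle for TOXFL, and in the average Mvk was lost (adjusted p = 0.0526) and Elovl5 gained. With no filter there were 678, 516 and 1665 genes and 1, 2 and 9 members. For the difference of effects, the GFP-positive and the GFP-negative groups there were 45, 116 and 37 genes, with a member median of 0.055 between GFP-positive groups. That fit took in every gene with a count, 37 members among them. The number of genes it tested is not given here, so its member counts have no share of all genes beside them. DESeq2, also without a share of all genes, gave 311, 113 and 1045 genes and 1 member for TOXFL and 6 for the average. It gave 5, 12 and 5 genes in the other comparisons. With only the groups compared, there were 2 genes for TOXFL, 0 for TOXdeltaN and 1 between GFP-positive groups. The cause of these changes was not tested.

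Omitting 1 library at a time gave 0 to 122 genes for TOXFL, 0 to 1571 genes and 0 to 6 members for TOXdeltaN, 5 to 2504 genes and 0 to 11 members for the average, 0 to 1 gene for the difference and for the GFP-negative groups, and 0 to 704 genes and 0 to 3 members for the GFP-positive groups. These ranges of genes and members, and those with the block below, are not matched by omission. Members cannot be set apart from other genes in them. Member medians ran from 0.066 to 0.176 for TOXFL, -0.015 to 0.080 for TOXdeltaN, 0.017 to 0.108 for the difference, 0.019 to 0.059 for the GFP-positive and -0.084 to 0.011 for the GFP-negative groups. The 6 members and 1571 genes came without TOXdeltaN-positive replicate 1, where the lone library is assumed to vary like the others. With the block, added after seeing the data, 2 to 16 members and 312 to 3681 genes were called in the average, Abcg1 and Fads2 in 8 of 8 omissions, Idi1 in 5, Fdft1 in 4, Cyp51 and Fdps in 3, and Msmo1, Mvk and Sqle in 2. Over 25 settings 17 or 18 of the 18 sterol enzymes had a positive average, and the fatty acid synthesis genes 0 or 1 of 3. Acaca, called lower in the average without TOXdeltaN-positive replicate 1 (-0.31), was at 0.05 with the block, length and GC. For TOXdeltaN, Acaca, Fasn and Scap, called lower in that omission (-0.50, -0.71 and -0.34), reached 0.07, 0.02 and 0.01 in others. At 2 libraries a group, shifts of this size rest on the estimate of spread, and counts as low as those of Abca1 limit its precision.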
